A study of Caenorhabditis elegans with 30 samples.

Results

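The effect of the nuo-6 mutation on transcript levels was examined in whole Caenorhabditis elegans that lacked both broadly expressed genes of the histone variant H3.3. The values compared were the pooled FPKM (sequenced fragments normalised for transcript length and library size) of the triple mutant nuo-6;his-72;his-71 and of the double mutant his-72;his-71, joined by gene identifier. A gene was compared where the higher pool reached 5 FPKM and both pools were above 0, which gave 11374 genes of the 20484 in the tables.

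The triple mutant carried nuo-6(qm200), his-72(tm2066) and his-71(ok2289), and the double mutant carried the same alleles of his-72 and his-71 with nuo-6 intact. WT and nuo-6(qm200) animals, whose H3.3 genes were intact, daf-2(e1370) animals, whose insulin receptor is impaired, and the daf-2 triple mutant, which adds the same his-72 and his-71 alleles, are used only beside these results. All were populations synchronised by bleaching, grown at 20 °C on OP50 bacteria and collected as late L4 larvae, the last larval stage, with 5 biological replicates per genotype. The authors deposited 1 FPKM value per gene and genotype, so the spread between replicates is unknown and no test, interval or p-value accompanies any difference below. A gene is called higher or lower where the deposited values differed at least 2-fold, and these words describe the 2 pools, not the genotypes at large.

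Histone variant H3.3 replaces canonical H3 in chromatin independently of DNA replication, at active genes and where other histones have been lost. In the worm it is not essential for viability, and the alleles used here remove his-71 and his-72 while other genes of the family remain. Below, without H3.3 means without his-71 and his-72, and with H3.3 means with both genes intact. The nuo-6 gene encodes a subunit of complex I, the enzyme at the entry of the mitochondrial respiratory chain. Its qm200 allele slows respiration and development, raises superoxide in mitochondria and extends lifespan, and mild respiratory defects of this kind are known to turn on the mitochondrial unfolded protein response, hypoxia-response and detoxification genes.

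The mutated genes were read first. his-71 (WBGene00001945) was at 0.276 FPKM in the double mutant and 0.337 in the triple mutant, beside 303 in WT and 223 in nuo-6. his-72 (WBGene00001946) was at 0.408 and 0.321 FPKM, beside 418 in WT and 226 in nuo-6. Both genes were thus near 0 in the 2 pools that carry the alleles, and under the level needed for comparison. nuo-6 (WBGene00012166) was at 368 FPKM in the double mutant and 464 in the triple mutant, 1.26-fold higher, and at 395 in WT and 634 in nuo-6. It shares its listed locus with another gene, and its level does not show whether the qm200 allele is present.

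The summed FPKM was 1227567 in the double mutant and 1177981 in the triple mutant, and 10847 and 10639 genes reached 5 FPKM. Sequencing depth is not given in the sources used here, so the counting error of a value is unknown. The samples were whole animals: all 35 muscle genes and 25 of 28 genes of synaptic transmission were among those compared, and 0 of either list were called. The median ratio over all compared genes was 0.960, a log2 ratio of -0.06, and the percentiles 10 and 90 of the log2 ratio were -0.71 and 0.69.

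Of the 11374 compared genes, 655 (5.76%) were higher in the triple mutant and 765 (6.73%) were lower. At least 4-fold differences were found for 192 higher and 289 lower genes, at least 8-fold differences for 76 higher and 18 lower genes, and at least 16-fold differences for 37 higher and 6 lower genes. Lower genes thus outnumbered higher ones at 4-fold, and higher genes outnumbered lower ones at 8-fold and above. The lower calls were gathered at low levels: of genes with 5 to 20 FPKM in the higher pool 11.2% were lower and 6.51% higher, whereas between 100 and 1000 FPKM 2.74% were lower and 6.31% higher. When the pools were scaled to the same median ratio, 730 genes were higher and 721 lower. Genes known only by a clone-based identifier, with no gene class name, made up 60.5% of the higher and 64.2% of the lower calls, beside 49.3% of all compared genes.

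**Figure D1:**
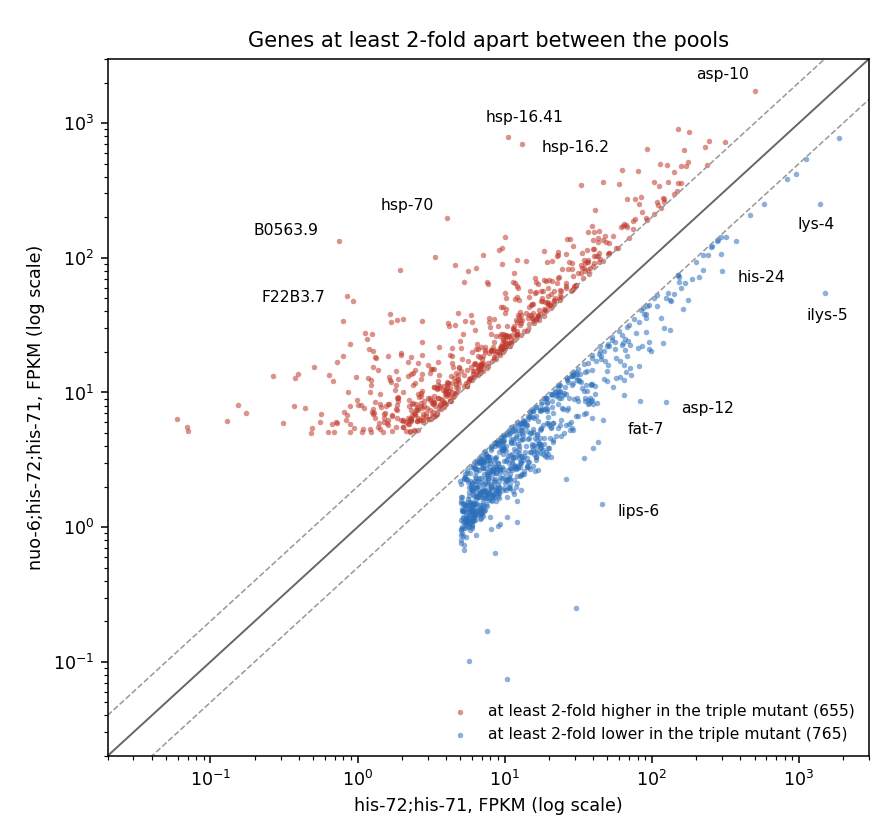
FPKM in the double mutant (x axis, log scale) and the triple mutant (y axis, log scale) for the 1420 genes that were at least 2-fold apart, each point 1 gene. The solid line marks equal levels and the dashed lines a 2-fold difference. The higher calls (655, red) include hsp-16.41 and hsp-16.2, at 784 and 695 FPKM in the triple mutant, and the lower calls (765, blue) crowd below 20 FPKM in the double mutant.

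The heat-inducible chaperones were among the genes with the largest folds. Chaperones bind unfolded proteins, and these genes are switched on by heat and other stresses through the factor HSF-1. hsp-16.41 (WBGene00002018), a small heat shock protein, was at 10.6 FPKM in the double mutant and 784 in the triple mutant, 73.8-fold higher. hsp-16.2 (WBGene00002016), another small heat shock protein, was at 13.1 and 695 FPKM, 53.0-fold higher. These genes are listed as neighbours on chromosome V, hsp-16.2 on the minus strand (V:1804334-1804971) and hsp-16.41 on the plus strand (V:1805233-1805875), with 261 bases between the listed loci.

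hsp-70 (WBGene00002026), an inducible member of the HSP70 family on chromosome I whose listed locus overlaps another gene's, was at 4.05 and 197 FPKM, 48.6-fold higher. F44E5.4 and F44E5.5, further HSP70 genes that lie head to head on chromosome II with 369 bases between their listed loci, had the same order. F44E5.4 was at 0.376 FPKM in the double mutant and 12.7 in the triple mutant, 34.0-fold higher. F44E5.5 was at 0.795 and 18.6 FPKM, 23.4-fold higher. These 2 are near-identical copies, so their reads could be split between them.

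Chaperone genes with a higher resting level were also called, with smaller folds. The HSP70 partner dnj-13, a DNAJ protein, was at 170 FPKM in the double mutant and 481 in the triple mutant. hsp-110, a nucleotide exchange factor of HSP70, was at 152 and 358 FPKM, and hsp-43 at 26.0 and 62.1. Of the 18 compared cytosolic heat shock genes (23 in the tables) 8 were higher and 0 lower, beside 5.76% higher over all compared genes. The median log2 ratio of the 18 was 0.70. Of the 18, 3 reached 5 FPKM in the triple mutant alone and had to be higher there. With a minimum of 20 FPKM 6 were higher. Members not called included the HSP90 gene daf-21 (1064 and 1477 FPKM), the constitutive HSP70 gene hsp-1 (1319 and 1506) and the transcription factor hsf-1 itself (19.6 and 17.9). hsp-16.1, hsp-16.11, hsp-16.48 and hsp-16.49, which have near-identical copies of one another, were at or under 0.0627 FPKM in the 4 pools with and without nuo-6.

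With H3.3 intact the order was the other way. In WT hsp-16.41 was at 254 FPKM and in nuo-6 at 160, so the nuo-6 pool was 1.59-fold lower. hsp-70 was at 83.1 FPKM in WT and 36.2 in nuo-6, 2.30-fold lower. The double mutant was thus the lowest of the 4 pools and the triple mutant the highest, for hsp-16.41, hsp-16.2, hsp-70, F44E5.4 and F44E5.5 alike. In nuo-6 over WT, 1 of 19 compared heat shock genes was higher (20.6% of all compared genes were) and 4 were lower (5.47% of all). hsp-16.41 was at 40.3 FPKM in the daf-2 triple mutant. There 6 of 17 heat shock genes were higher over the double mutant, the same denominator pool, beside 13.2% of all compared genes.

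**Figure D2:**
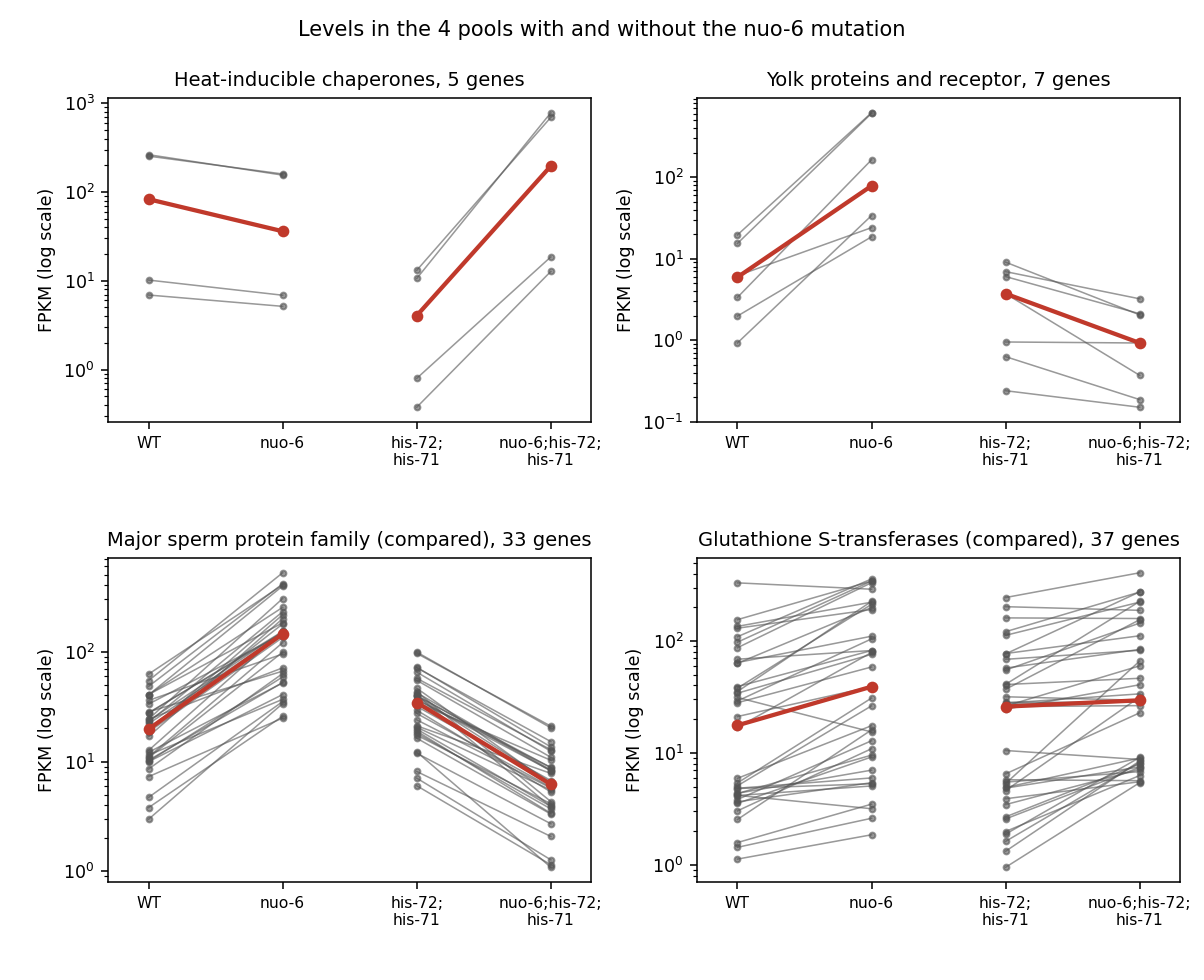
FPKM (log scale) in WT, nuo-6, the double mutant and the triple mutant for 4 groups of genes; thin grey lines join the values of 1 gene with and without the nuo-6 mutation, and the thick red line joins the medians over the group. The 5 heat-inducible chaperones are lowest in the double and highest in the triple mutant, while the 7 yolk genes and the 33 compared sperm protein genes are highest in nuo-6 and lowest in the triple mutant by their medians.

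A second group of higher genes belongs to detoxification of foreign and reactive compounds. Cytochrome P450 enzymes oxidise such compounds, and glutathione S-transferases and UDP-glycosyltransferases attach groups that make them soluble. Of the 189 genes of these families 114 were compared, of which 43 were higher and 0 lower, beside 5.76% higher over all compared genes. Of the glutathione S-transferases 17 of 37 compared were higher, with a median log2 ratio of 0.87. Of these 37, 12 reached 5 FPKM in the triple mutant alone and had to be higher there, and the 12 family members under 5 FPKM in both pools all had higher values in the triple mutant as well.

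gst-4, a widely used reporter of the oxidative stress factor SKN-1, was at 41.0 FPKM in the double mutant and 226 in the triple mutant, 5.51-fold higher, close to its values of 37.9 in WT and 212 in nuo-6. gst-14 was at 5.32 and 66.2 FPKM, 12.4-fold higher, beside 5.08 in WT and 26.3 in nuo-6. gst-12 was at 4.61 and 31.6 FPKM, 6.85-fold higher, beside 4.33 in WT and 9.54 in nuo-6. For these 3 genes WT and the double mutant had nearly the same level, and for gst-14 and gst-12 the triple mutant was the highest of the 4 pools.

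Of the cytochrome P450 genes 14 of 34 compared were higher, and of the UDP-glycosyltransferases 12 of 43. Of the 34, 10 reached 5 FPKM in the triple mutant alone and had to be higher there, as did 5 of the 43. With a minimum of 20 FPKM 7 cytochrome P450 genes and 8 UDP-glycosyltransferases were higher. cyp-14A4, which is induced when mitochondrial translation or respiration is impaired, was at 2.03 FPKM in the double mutant and 35.3 in the triple mutant, 17.4-fold higher. cyp-33C8 was at 27.7 and 139 FPKM, 5.02-fold higher, and ugt-62 at 165 and 627, 3.81-fold higher. With H3.3 intact these families were also high in nuo-6: 24 of 36 glutathione S-transferases, 20 of 39 cytochrome P450 genes and 16 of 46 UDP-glycosyltransferases were higher over WT. Of the 107 genes of these families compared in both backgrounds, 34 were higher in both, out of 39 higher without H3.3 and 51 higher with it.

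The F-box fbxa genes, a large worm family of putative adaptors for ubiquitin ligases, had 25 higher and 2 lower genes among 61 compared (190 in the tables), with 24 of the 61 at 5 FPKM in the triple mutant alone. fbxa-158 was at 0.677 FPKM in the double mutant and 12.2 in the triple mutant, 18.0-fold higher. fbxa-182 was at 1.98 and 19.6 FPKM, 9.88-fold higher. Of the 53 compared in both backgrounds 20 were higher in both. Nuclear hormone receptors, transcription factors many of which govern metabolism and detoxification, had 18 higher (12.3%) and 3 lower (2.05%) genes of 146 compared. Over all compared genes 5.76% were higher and 6.73% lower. Of the 146, 19 reached 5 FPKM in the triple mutant alone and had to be higher there. nhr-17 was at 12.2 FPKM in the double mutant and 96.1 in the triple mutant, 7.87-fold higher, with 60.5 in WT and 44.1 in nuo-6, so that the double mutant was again the lowest of the 4 pools.

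**Figure D3:**
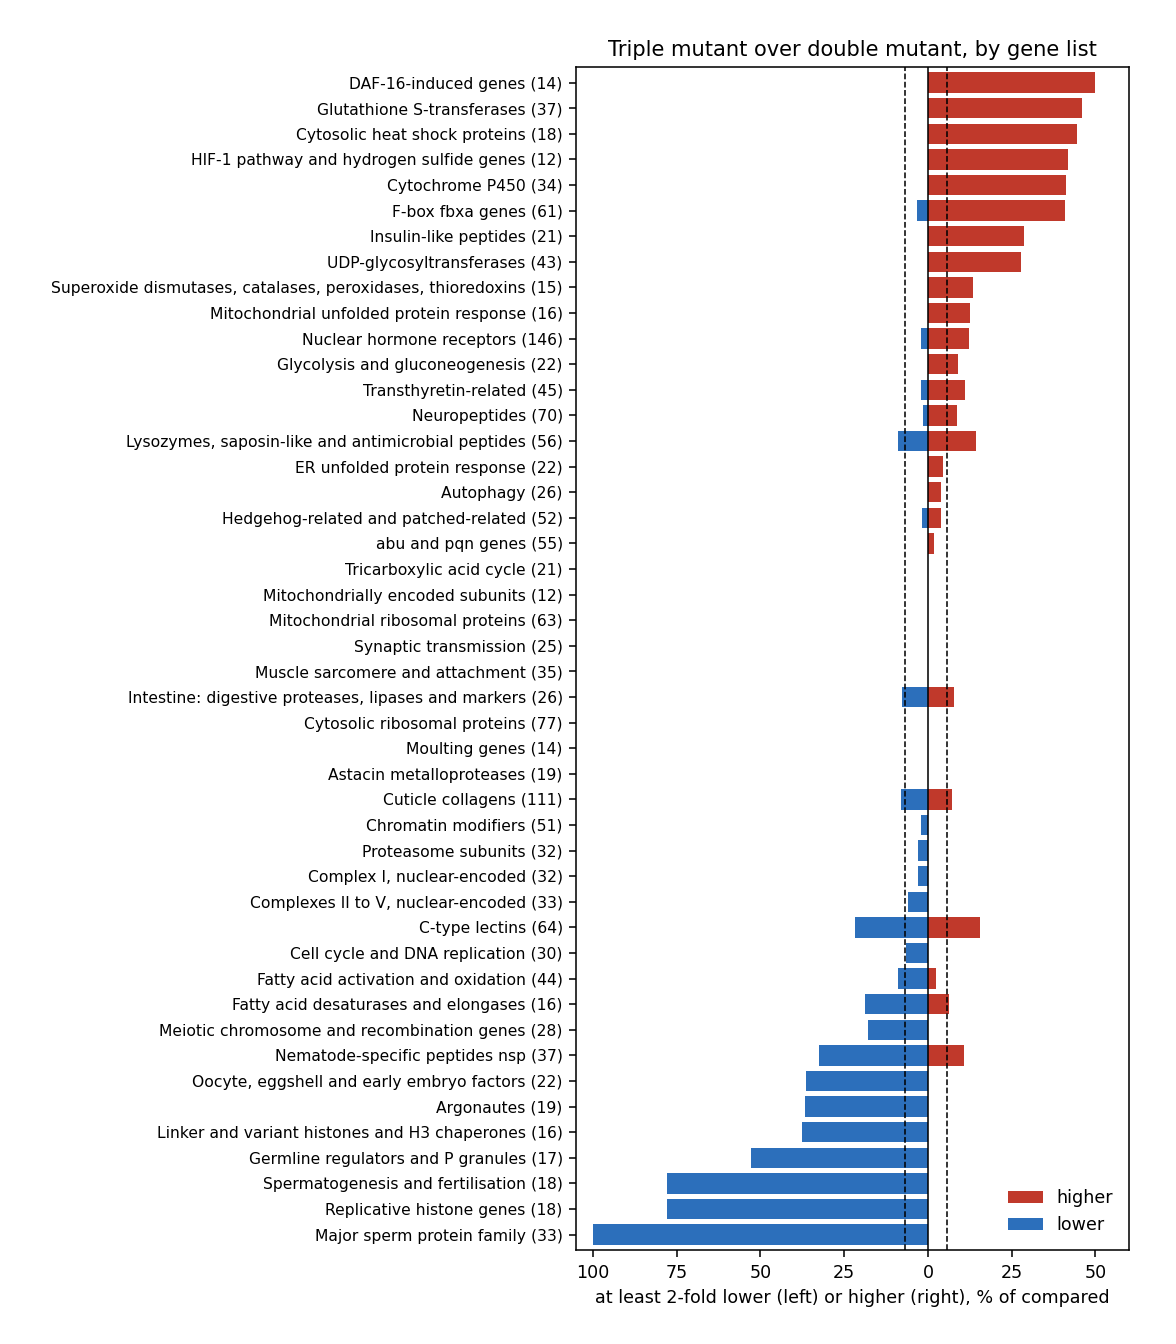
Percentage of compared members that were at least 2-fold higher (red, right) or lower (blue, left) in the triple mutant over the double mutant, for each gene list with at least 12 compared members, whose number stands in parentheses. Dashed lines mark 5.76% higher and 6.73% lower, the shares over all compared genes. DAF-16, glutathione S-transferase, heat shock, HIF-1, cytochrome P450 and fbxa lists stand at the top, ER unfolded protein response and abu and pqn genes near the middle, and sperm, replicative histone and germline regulator lists at the bottom.

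Few genes of the respiratory chain itself were called. Of the 32 nuclear-encoded complex I genes, 31 had a higher value in the triple mutant, with a median log2 ratio of 0.26, but 0 were called higher. Their ratios were narrow, up to 1.45-fold for F37C12.3, which was at 374 and 542 FPKM. nduf-2.2, the copy of a core subunit gene with the lowest level of the list, was the exception, at 45.3 FPKM in the double mutant and 17.8 in the triple mutant, 2.54-fold lower. With H3.3 intact 7 of the 32 were higher in nuo-6 over WT, near the 20.6% of all compared genes. The median log2 ratio of the 32 there was 0.76, beside 0.12 over all compared genes. Among 33 genes of complexes II to V, 0 were higher and 2 lower: cyc-2.2, a second cytochrome c gene, was at 41.3 and 9.67 FPKM, and ucr-2.3 of complex III at 62.7 and 22.7, and both share a listed locus. Of the 12 subunits encoded in mitochondrial DNA 0 were called, with log2 ratios from -0.84 to 0.97. With the pools scaled 1 was higher, ndfl-4 (25.5 and 50.03 FPKM), and with a ratio of 1.5 3 were higher and 1 lower. The most abundant of them in the triple mutant, ctc-1 of complex IV, was at 4251 and 7098 FPKM.

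The mitochondrial unfolded protein response raises chaperones and proteases of the organelle under the factor ATFS-1. Of its 16 compared genes 2 were higher, cyp-14A4 and cyp-14A1 (7.89 and 35.5 FPKM, 4.51-fold), and 0 lower. The share higher was 12.5%, beside 5.76% over all compared genes, and 2 of the 16 reached 5 FPKM in the triple mutant alone. The chaperone gene hsp-6, the usual reporter of this response, was at 343 FPKM in the double mutant and 642 in the triple mutant, a ratio of 1.87 that missed the threshold, beside 407 in WT and 470 in nuo-6. hsp-60 was at 255 and 283 FPKM, and atfs-1 at 64.6 and 96.2. In 15 of the 16 the triple mutant had the higher value, and the median log2 ratio was 0.56. Of the 63 mitochondrial ribosomal protein genes 0 were called, beside 21 that were higher in nuo-6 over WT.

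Genes of the hypoxia factor HIF-1 and of hydrogen sulfide handling had 5 higher and 0 lower members among 12 compared. Of the 12, 1 reached 5 FPKM in the triple mutant alone and had to be higher there. Over all compared genes 5.76% were higher. F22B5.4, a HIF-1 target, was at 12.1 FPKM in the double mutant and 62.1 in the triple mutant, 5.14-fold higher. sqrd-1, the sulfide quinone oxidoreductase that removes hydrogen sulfide, was at 4.40 and 21.2 FPKM, 4.82-fold higher. cysl-2, a cysteine synthase family gene on a shared listed locus, was at 43.0 and 131 FPKM, 3.05-fold higher, and at 95.7 in WT. The other higher members were nhr-57, at 6.36 and 21.0 FPKM, and ethe-1, at 8.19 and 17.1. Of the 5 higher genes 4 were also higher in nuo-6 over WT, beside 69.9% of all genes higher without H3.3 and compared in both.

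Of 14 compared genes known to be induced by DAF-16, the transcription factor held in check by insulin signalling, 7 were higher and 0 lower. The share higher over all compared genes was 5.76%. Of the 14, 2 reached 5 FPKM in the triple mutant alone and had to be higher there. With genes that share a listed locus left out 4 were higher, and with a minimum of 20 FPKM 4 were. The metallothionein gene mtl-1 was at 1.21 FPKM in the double mutant and 10.2 in the triple mutant, 8.38-fold higher, and the lysozyme gene lys-7 at 40.6 and 155, 3.82-fold higher. far-3 (9.16 and 115 FPKM) and the superoxide dismutase gene sod-3 (2.38 and 13.9) share listed loci. In nuo-6 mtl-1 was at 34.1 FPKM, beside 2.87 in WT, and 6 of the 7 higher genes were also higher in nuo-6 over WT. Of all 568 genes higher without H3.3 and compared in both backgrounds, 69.9% were. In the daf-2 triple mutant mtl-1 was at 457 FPKM, and 14 of 17 genes of the list were higher than in the double mutant.

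Insulin-like peptides, the ligands of the DAF-2 receptor, had 6 higher (28.6%) and 0 lower genes among 21 compared, beside 5.76% higher over all compared genes. The median log2 ratio of the 21 was 0.77, and 2 of them reached 5 FPKM in the triple mutant alone. With a pseudocount of 1 4 were higher, and with a ratio of 3 2 were. ins-5 was at 12.3 FPKM in the double mutant and 37.7 in the triple mutant, 3.08-fold higher, although it was 2.74-fold lower in nuo-6 (6.77) than in WT (18.5). ins-28 was at 23.6 and 71.5 FPKM, 3.04-fold higher. daf-28, an agonist of the receptor, was at 28.7 and 57.8 FPKM, 2.01-fold higher, and at 24.2 in WT and 16.9 in nuo-6. With H3.3 intact 3 of 22 were higher and 6 lower in nuo-6, beside 20.6% and 5.47% of all compared genes. None of the 20 insulin-like genes compared in both backgrounds was higher in both. Neuropeptide genes had 6 higher and 1 lower among 70 compared, 8.57% higher beside 5.76% of all, with nlp-37 at 36.7 and 96.4 FPKM, beside 44.2 in WT and 29.8 in nuo-6.

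Genes of metabolism were called in both directions. pck-1, which commits carbon to glucose synthesis, was at 127 FPKM in the double mutant and 491 in the triple mutant, 3.86-fold higher, and the aldolase gene aldo-1 at 230 and 661, 2.88-fold higher. These were the 2 higher genes of 22 compared in glycolysis and gluconeogenesis, and 0 of 21 genes of the tricarboxylic acid cycle were called. fat-7, a stearoyl-CoA desaturase that makes oleic acid, was at 64.8 and 9.54 FPKM, 6.79-fold lower, and it was 13.1-fold lower in nuo-6 over WT as well. Of 16 desaturases and elongases 3 were lower (18.8%) and 1 higher (6.25%), beside 6.73% and 5.76% of all compared genes. Of 44 genes of fatty acid activation and oxidation 4 were lower (9.09%) and 1 higher (2.27%). The lowest log2 ratio of these 44 was -3.25, for acdh-2, which shares a listed locus. sqst-1, the autophagy receptor, was the only called gene of 26 autophagy genes, at 43.0 and 139 FPKM, beside 86.2 in WT and 94.0 in nuo-6.

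Genes of innate defence went both ways. Lysozymes digest bacterial walls, and several were among the lower genes: ilys-5 was at 1515 FPKM in the double mutant and 54.7 in the triple mutant, 27.7-fold lower, and lys-4 at 1400 and 251, 5.57-fold lower. The values with H3.3 intact were like these, at 1702 in WT and 78.5 in nuo-6 for ilys-5 and at 1321 and 354 for lys-4. T24B8.5, a reporter of the p38 immune pathway, was at 7.14 and 105 FPKM, 14.8-fold higher, and it was 11.9-fold higher in nuo-6 over WT. Of 56 compared lysozymes, saposin-like and antimicrobial peptides 8 were higher (14.3%) and 5 lower (8.93%), beside 5.76% and 6.73% of all compared genes. With genes that share a listed locus left out 4 were higher and 5 lower. At 20 FPKM or more in the higher pool the list had 3 higher and 3 lower. All 5 lower and 7 of the 8 higher genes were called the same way in nuo-6 over WT. C-type lectins are sugar-binding proteins of defence and of sperm. They had 10 higher (15.6%) and 14 lower (21.9%) genes among 64, beside 5.76% and 6.73% of all compared genes. Of the 64, 9 reached 5 FPKM in the triple mutant alone and 10 in the double mutant alone, which fixed their direction. With a minimum of 20 FPKM 7 were higher and 4 lower, and a pseudocount of 1 gave 10 and 9. clec-17 was at 5.67 FPKM in the double mutant and 79.2 in the triple mutant, beside 3.93 in WT and 77.8 in nuo-6.

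Many of the named lower genes belong to sperm and to the germline. Major sperm proteins move nematode sperm and signal to oocytes, and sperm are made in hermaphrodites during the fourth larval stage. Of the 47 genes of this family 33 were compared, and 33 of 33 were lower in the triple mutant, beside 6.73% over all compared genes. Of these 33, 12 reached 5 FPKM in the double mutant alone and had to be lower in the triple mutant. Of the 14 left out as under 5 FPKM in both pools 10 had a lower value in the triple mutant and 1 a higher value, and the rest were at 0 in a pool. The family is made of near-identical copies, so reads could be split among its members. Whole animals were sampled, and fewer cells of a type and less RNA per cell cannot be told apart. All pools were collected as late L4 larvae, and whether they differed in developmental age was not tested.

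msp-74, with the largest fold of the family, was at 12.2 FPKM in the double mutant and 1.09 in the triple mutant, 11.2-fold lower. msp-49 was at 40.0 and 3.88 FPKM, 10.3-fold lower, and msp-152 at 39.3 and 6.45, 6.09-fold lower. The smallest fold of the 33 was 2.71, and the median level was 34.4 FPKM in the double mutant and 6.201 in the triple mutant. With H3.3 intact the order was the opposite: the median of the same 33 genes was 19.7 FPKM in WT and 145 in nuo-6, and all 33 were higher in nuo-6 over WT. In the daf-2 triple mutant over the double mutant 1 of 34 was higher and 21 were lower, beside 13.5% lower over all compared genes.

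Other genes of spermatogenesis went the same way. Of 18 compared 14 were lower and 0 higher, beside 6.73% lower over all compared genes. Of the 18, 12 reached 5 FPKM in the double mutant alone. All 14 members under that level in both pools also had lower values in the triple mutant. spe-44, a transcription factor of the sperm program, was at 12.8 and 2.98 FPKM, 4.29-fold lower. spe-11, a sperm-supplied factor needed by the embryo, was at 8.10 and 1.91 FPKM, 4.25-fold lower, and at 5.46 in WT and 35.7 in nuo-6. Of the Argonautes, proteins that hold small RNAs, 7 of 19 were lower and 0 higher, beside 6.73% lower over all compared genes. The 19 had a median log2 ratio of -0.22, 5 of them had a ratio above 1, and 3 reached 5 FPKM in the double mutant alone. The lower ones were led by alg-4 (14.2 and 2.84 FPKM) and included alg-3 (10.5 and 2.66), both of which act in the male germline. Also lower were wago-10, wago-1, ppw-2 and wago-2. Of the 37 compared nsp genes, a class of nematode-specific peptides, 12 were lower (32.4%) and 4 higher (10.8%), beside 6.73% and 5.76% of all. nspd-2 was at 60.9 and 12.95 FPKM, 4.70-fold lower, beside 42.7 in WT and 301 in nuo-6.

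Genes of yolk and of the oocyte come on as animals pass into adulthood. Of the 7 yolk genes 3 were compared, and all 3 were lower in the triple mutant. The yolk protein gene vit-6 was at 9.05 FPKM in the double mutant and 2.04 in the triple mutant, 4.43-fold lower, beside 19.5 in WT and 615 in nuo-6. vit-2 was at 6.02 and 2.11 FPKM, 2.86-fold lower, beside 15.4 in WT and 605 in nuo-6. The yolk receptor gene rme-2 was at 6.93 and 3.22 FPKM, 2.15-fold lower. All 3 reached 5 FPKM in the double mutant alone, and the other 4 yolk genes, under 5 FPKM in both pools, also had their lower value in the triple mutant. In nuo-6 over WT, 7 of 7 were higher, and 7 of 7 were higher in the daf-2 triple mutant over the double mutant.

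Of 22 compared genes of oocytes, eggshell and early embryo 8 were lower and 0 higher, beside 6.73% lower over all compared genes. Of the 22, 8 reached 5 FPKM in the double mutant alone and had to be lower in the triple mutant. cpg-2, an eggshell proteoglycan, was at 19.2 and 7.71 FPKM, 2.49-fold lower, and oma-1, needed for oocyte maturation, at 16.3 and 6.66, 2.44-fold lower. With H3.3 intact 18 of 26 genes of this list were higher in nuo-6, among them cpg-3, at 4.60 FPKM in WT and 56.3 in nuo-6 against 7.01 in the double and 2.78 in the triple mutant. In the daf-2 triple mutant 27 of 29 were higher than in the double mutant.

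Regulators of the germline had like levels in nuo-6 and WT. P granules are the RNA-protein bodies of worm germ cells, and pgl-1, a core component, was at 91.3 FPKM in the double mutant and 28.3 in the triple mutant, 3.23-fold lower, beside 73.5 in WT and 75.1 in nuo-6. pgl-3 was at 33.3 and 11.9 FPKM, 2.80-fold lower, beside 30.7 in WT and 37.3 in nuo-6. gld-1, a translational repressor needed for oocyte fate, was at 91.9 and 38.0 FPKM, 2.42-fold lower. Of the 17 compared genes of this list 9 were lower and 0 higher, beside 6.73% lower over all compared genes. At 5 FPKM in both pools were 15 of the 17, and the median log2 ratio of the list was -1.03. In nuo-6 over WT, 0 of 17 were called.

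Meiotic genes had 5 lower (17.9%) and 0 higher members among 28, beside 6.73% lower over all compared genes, with a median log2 ratio of -0.79. Of the 28, 6 reached 5 FPKM in the double mutant alone and had to be lower in the triple mutant. syp-2, of the synaptonemal complex that joins paired chromosomes, was at 19.5 and 8.42 FPKM, 2.31-fold lower. htp-1, of the chromosome axis, was at 39.1 and 18.0 FPKM, 2.17-fold lower. Cell cycle and DNA replication genes had 2 lower of 30, near the 6.73% of all compared genes, and a median of -0.49, and 1 of the 2, cyb-2.2, lost its call with the pools scaled to the same median ratio. iff-1, a germline translation factor, was the lower germline gene with the largest drop in level, at 959 and 416 FPKM, 2.30-fold lower, beside 1046 in WT and 1028 in nuo-6.

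Histone genes formed a further lower group. Of the 3 H3.3 genes of the list that the alleles leave in place, his-70 and his-74 were compared and called lower, and his-69, at 0.383 and 0.247 FPKM, was under the level needed for comparison. his-70 was at 25.3 FPKM in the double mutant and 4.98 in the triple mutant, 5.09-fold lower, beside 17.7 in WT and 22.9 in nuo-6. his-74 was at 149.7 and 73.9 FPKM, 2.02-fold lower, and lost its call when the pools were scaled. The linker histone genes, whose products sit on the DNA between nucleosomes, were led by his-24 at 300.0 and 80.1 FPKM, 3.75-fold lower, and hil-3 at 175 and 48.2, 3.64-fold lower. Both were also lower in nuo-6 over WT (3.56-fold and 2.83-fold). Of 16 compared linker and variant histones and H3 chaperones all 16 had the lower value in the triple mutant. Of these 6 were called lower (37.5%), beside 6.73% over all compared genes.

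The replicative histones, which package newly made DNA, had 14 lower and 0 higher genes among 18 compared of 66 in the tables. Over all compared genes 6.73% were lower. Of these 18, 11 reached 5 FPKM in the double mutant alone, and with a minimum of 20 FPKM 1 was lower. his-4 was at 16.6 and 4.79 FPKM, 3.46-fold lower. Their transcripts mostly lack the poly(A) tail on which mRNA libraries rely, and they come from near-identical copies, so their levels are uncertain. Of 51 compared chromatin modifiers 1 was lower, set-32 at 6.89 and 3.40 FPKM, and it lost its call when the pools were scaled.

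Other large families had few calls. All 32 proteasome subunit genes had a lower value in the triple mutant, with a median log2 ratio of -0.37, and 1 was called, rpn-6.2, at 19.8 and 5.92 FPKM. Cytosolic ribosomal protein genes had a median of -0.22 with 75 of 77 lower in value and 0 called. Of 111 compared cuticle collagens, which build the worm's outer coat, 8 were higher (7.21%) and 9 lower (8.11%), near the 5.76% and 6.73% of all compared genes. col-142 was at 38.9 and 172 FPKM, 4.41-fold higher, whereas col-110, on a shared listed locus, was at 49.4 and 12.2, 4.04-fold lower. Of 14 moulting genes 0 were called, beside 8 that were lower in nuo-6 over WT, and of 19 astacin proteases 0 were called, beside 12 of 16 that were lower in nuo-6 over WT.

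Most called genes are not in any of the 50 lists, which hold 326 of the 1420 called genes and 1681 of the 11374 compared genes. B0563.9 (WBGene00044687) on chromosome X had the largest ratio among genes with at least 0.5 FPKM in the lower pool. It was at 0.752 FPKM in the double mutant and 133 in the triple mutant, 177-fold higher, and at 0.544 in WT and 89.1 in nuo-6, 164-fold higher. F22B3.7 was at 0.853 and 52.3 FPKM, 61.3-fold higher, beside 1.0 in WT and 48.7 in nuo-6. F15D4.5 was at 3.39 and 101 FPKM, 29.8-fold higher, beside 1.75 in WT and 91.9 in nuo-6.

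For these 3 genes the levels were alike in the 2 pools with the nuo-6 mutation and low in the 2 pools without it. By difference in level, B0205.13 (151 and 897 FPKM) and the cadmium-responsive gene cdr-4 (92.9 and 643) were among the higher genes, and both were higher in nuo-6 over WT. At the lower end the lipase gene lips-6 was at 45.7 FPKM in the double mutant and 1.48 in the triple mutant, 31.0-fold lower, and it was 42.9-fold lower in nuo-6 over WT. asp-12, an aspartyl protease, was at 124.5 and 8.55 FPKM, 14.6-fold lower.

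The nuo-6 effect with and without H3.3 was set side by side for the 10974 genes compared in both backgrounds, since the 2 ratios share no pool. With H3.3 intact more genes were called higher, 2416 of 11716 (20.6%), and 641 (5.47%) lower. The SD of the log2 ratios over genes was 1.24 with H3.3 and 0.80 without it. The calls with H3.3 are from unscaled pools, whose summed FPKM was 1304234 in WT and 1508331 in nuo-6. The median log2 ratio of nuo-6 over WT was 0.12, and its counts were not recomputed with the pools scaled. Of the 568 genes higher without H3.3, 397 (69.9%) were also higher with it, which is 21.8% of the 1821 genes higher with H3.3. Of the 735 genes lower without H3.3, 46 (6.26%) were also lower with it and 379 (51.6%) were higher. The 379 are 20.8% of the genes higher with H3.3. Over all 10974 genes 54.0% had a ratio above 1 with H3.3.

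Most genes called in either direction without H3.3 had a ratio above 1 with it. The median log2 ratio in nuo-6 over WT was 1.58 for the higher and 1.09 for the lower genes. Of the genes lower without H3.3, 79.2% had a ratio above 1 with it, and of those higher without it 86.3%. Over the 12104 genes that were above 0 in all 4 pools and reached 5 FPKM in any of them, Pearson's r of the 2 log2 ratios was 0.136, Spearman's rho 0.110 and the major-axis slope 0.18. This correlation is across genes, which are not independent replicates, and it is a description of these 4 pools.

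**Figure D4:**
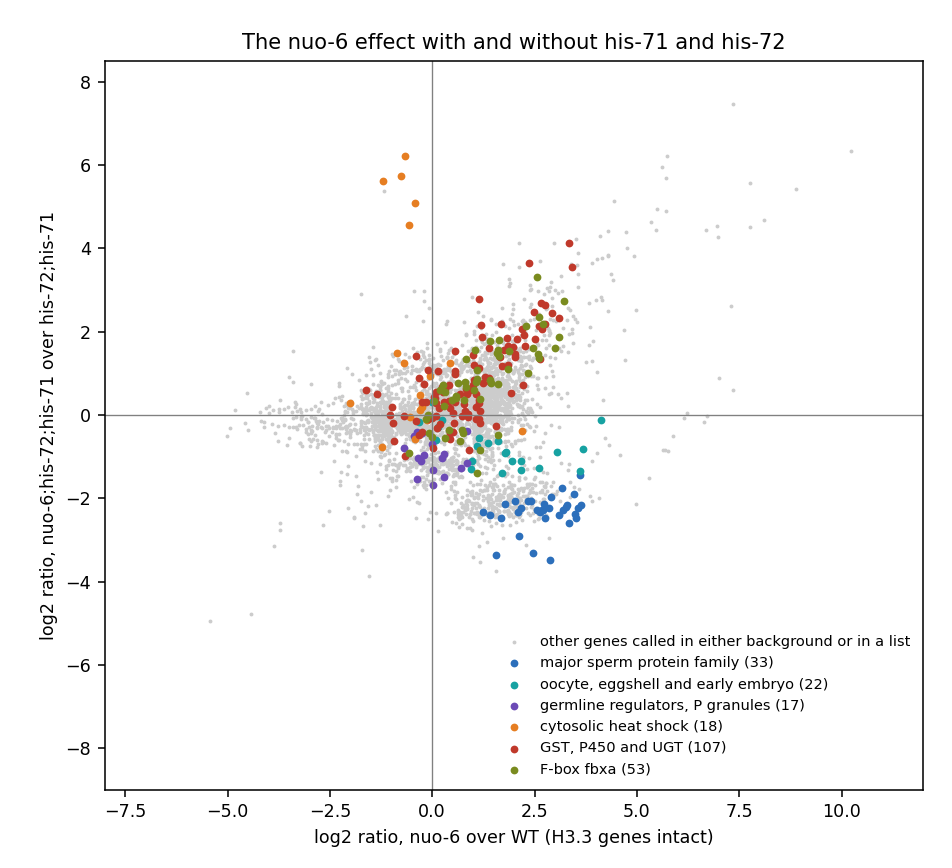
Log2 ratio of nuo-6 over WT (x axis) and of the triple over the double mutant (y axis), each point 1 gene compared without H3.3. Grey points are genes called in either background or in a list, and coloured points are the members of 6 groups named in the key. Detoxification and fbxa genes lie along the rising diagonal, the 33 sperm protein genes lie at the lower right, germline regulators lie below 0 near the middle of the x axis, and 5 heat-inducible chaperones stand at the upper left.

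The 379 genes with opposite calls hold all 33 compared major sperm protein genes, 9 genes of spermatogenesis, 10 nsp peptide genes, 6 oocyte genes, 6 collagens and the 3 compared yolk genes. A smaller set of 13 genes was higher without H3.3 and lower with it. It holds hsp-70, ins-5 and the neuropeptide gene flp-2. R11A5.3, also in this set, was at 1.95 FPKM in the double mutant and 81.0 in the triple mutant, 41.5-fold higher, beside 25.5 in WT and 11.3 in nuo-6. A further 158 genes were higher without H3.3 and called in neither direction with it, among them F19B2.5, at 178 and 851 FPKM, beside 331 in WT and 424 in nuo-6.

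Called genes were spread unevenly over the chromosomes, by the positions listed in the tables. On chromosome V 11.5% of 2172 compared genes were higher and 6.31% lower, while on chromosome I 2.50% of 1918 were higher and 8.29% lower. Chromosome IV had the largest share of lower genes, 10.03% of 1935, and the X chromosome the smallest among nuclear chromosomes, 2.11% of 1520. With H3.3 intact the X chromosome had 11.02% lower genes, beside 5.47% over all. Within 500 kb of nuo-6 on chromosome I, where strains can differ by linked sequence, 3 of 163 compared genes were higher and 13 lower (1.84% and 7.98%). Around his-71 6 of 102 were higher and 4 lower, and around his-72 4 of 96 and 5.

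**Figure D5:**
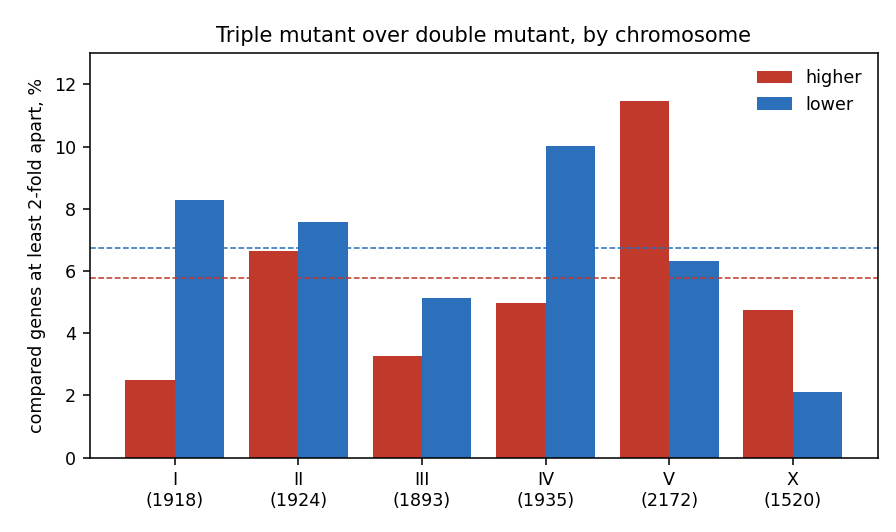
Percentage of compared genes that were at least 2-fold higher (red) or lower (blue) in the triple mutant over the double mutant, by chromosome, with the number of compared genes in parentheses. Dashed lines mark the shares over all compared genes, 5.76% higher and 6.73% lower. Chromosome V stands above the line for higher genes, chromosome IV above that for lower genes, and X below both.

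Neighbouring genes were often called alike. A neighbour is the compared gene next in order on either side. Among the 8667 compared genes that share no listed locus, 228 of the 554 higher genes (41.2%) had a higher neighbour. Of all 8667 genes 11.8% had one. Of the 625 lower genes 265 (42.4%) had a lower one next to them, beside 13.3% of all. Members of families such as the major sperm proteins lie in clusters in the worm genome, and the part of shared sequence in these counts was not tested.

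The thresholds cut through a continuous range. szy-4, at 5.00 FPKM in the double mutant and 2.21 in the triple mutant, was just inside the minimum, and srp-2, at 2.22 and 4.998, was just outside it. flp-17, at 30.1 and 60.3 FPKM, was just inside a 2-fold difference, and Y46E12A.5, at 6.57 and 13.1, just outside it with a ratio of 1.999. Of the called genes 18 had under 0.5 FPKM in the lower pool and 4 had under 0.1, where a ratio gives little more than a direction, and 241 shared a listed locus with another gene.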

How the data were processed

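Whole late L4 worms of 6 genotypes were sequenced as mRNA, with 5 biological replicates each. The values are FPKM that the authors computed and deposited as 1 table per genotype, by a combination of replicates that no source here describes. STAR, Cufflinks, Cuffdiff and FastQC are named in the submitters' processing notes. Versions, genome build, strandedness and depth are not given in the sources used here. Strand was therefore not used, and overlapping genes cannot be told apart.

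From these tables ratios of deposited values were computed with pandas 2.3.3 and numpy 2.4.6, with no pseudocount, no rescaling and no test. Genes needed 5 FPKM in the higher pool and a value above 0 in both, and a ratio of 2 was called. The ratio code was tested on simulated data. Listed starts count from 0 and are given 1-based. Of the listed genes 20179 were found in WBcel235 by identifier, all on the chromosome listed, and 8975 of them shared a start or end with it.

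The compared pools and the 50 gene lists were chosen with earlier results of these data known. Large families were taken by name pattern, and the pattern of the replicative histones was corrected for gene identity once the tables were read. Of the list names 3 were not found. The text names nuo-6, his-71 and his-72, the top 12 called genes of each direction by ratio among those with at least 0.5 FPKM in the lower pool, the top 8 by difference in FPKM, up to 6 called members of each list, and compared members of the yolk, H3.3, heat shock, complex I and mitochondrial stress lists. Some were left out for length. Besides these, ctc-1, ndfl-4, hsp-16.1 and its copies, the genes listed at 0 and those at the thresholds were named after their values were seen. Promoter motifs and sequences were not used here.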

Additional observations from a re-analysis of the deposited data

Results flagged for a closer look

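The pattern that stood out was opposite calls of the nuo-6 effect with and without H3.3: 379 genes were lower in the triple over the double mutant and higher in nuo-6 over WT, and 13 were higher in the first and lower in the second. The difference was not tested, since each genotype has 1 pooled value. The calls in nuo-6 over WT were not recomputed with the pools scaled. Whether the pools differed in developmental age was not tested either. Among named lists, 33 major sperm protein genes, 9 spermatogenesis genes and 3 yolk genes (vit-2, vit-6 and rme-2) were lower without H3.3 and higher with it.

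Of these lists the yolk genes had their highest levels in other pools of the study, at 615 FPKM in nuo-6 and 2348 in the daf-2 triple mutant for vit-6. In the double and triple mutants vit-6 was at 9.05 and 2.04 FPKM, so the call there was made at the low end of its range.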

How the results depend on the processing

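The number of called genes depended on both thresholds. As reported, 655 genes were higher and 765 lower. With a minimum of 1 FPKM 1088 were higher and 1664 lower, with 20 FPKM 336 and 215, and with no minimum 2199 and 2301. With a ratio of 1.5 the counts were 1421 and 1480, and with a ratio of 3 they were 289 and 462. The share of calls that were higher was thus 46.1% as reported, 61.0% with 20 FPKM and 38.5% with a ratio of 3. Spearman's rho of the effects with and without H3.3 was 0.110 as reported and 0.235 with 20 FPKM. Scaling gave 730 and 721 genes with equal median ratios, 731 and 721 with equal sums and 739 and 716 with equal upper quartiles. A pseudocount of 1 gave 582 and 676, or 583 and 682 with genes listed at 0 kept, and leaving out shared loci gave 554 and 625. No named gene turned direction, which for a called gene no threshold, pseudocount or left-out gene could bring about. With a minimum of 20 FPKM 110 of the named genes were compared. There 29 of 98 list counts changed more than 1.5-fold, or to or from 0. Of 196 named genes 191 kept their call under each scaling and 5 lost it (M28.5, his-74, set-32, zhp-3 and cyb-2.2), 12 lost it with a pseudocount and 64 with a ratio of 3. The cause of these changes was not tested. No paired analysis was possible because each genotype has 1 value, and no replicate could be left out. Depth is unknown, which limits ratios against low values.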

Other observations

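An exact 0 in these tables does not show that a gene was silent. Listed at 0 in the triple mutant were 6 genes with at least 5 FPKM in the double mutant. They include rps-3, a ribosomal protein gene that every cell uses, at 4989 FPKM in the double mutant, and cct-4, a subunit of the TRiC chaperonin, at 220 FPKM. The reverse held for F20E11.17, at 6.06 FPKM in the triple mutant. These genes have no ratio and were not called.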
